A study of Mus musculus with 27 samples.

Results

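Day 10 and day 12 of an osteoblast differentiation series were compared by RNA sequencing of mouse calvarial cells. The samples were chosen by the day in their labels, which gave 6 of the 27 profiles of the series, and genes were compared where the estimated counts of the 6 profiles summed to at least 30, which kept 14350 of 37991 genes. The series sampled 9 time points, every other day from day 2 to day 18, and was made to follow genes near bone density loci through osteoblast maturation. Cells of both days came from the calvariae, which form the roof of the skull, of C57BL/6J-Col3.6 CFP mice 5 to 9 days old. They were released by enzymes, grown for 4 days and sorted for cyan fluorescent protein. After the sort, cells of both days were cultured alike in aMEM with ascorbic acid, 4 mM beta-glycerol phosphate and 10% fetal bovine serum, so that by their labels the groups differed in the time spent in this medium. The fluorescent protein was driven by the Col3.6 fragment of a type I collagen promoter and was read once, before the culture began, so the sort does not describe the cells present on day 10 or day 12. No source used here says how many mice were pooled.

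Osteoblasts build bone by laying down a matrix of type I collagen and later filling it with mineral. Precursors divide, then slow their division as matrix genes come on, and the genes of mineralization, among them those for bone sialoprotein and osteocalcin, come on last. The same mesenchymal precursors can become adipocytes, and cultures made from bone also carry cells of the monocyte lineage, from which macrophages and osteoclasts arise.

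The 3 profiles of a day, called triplicates by the study, carried 1 barcode and came from different sequencing lanes. Over genes with whole-number counts, they differed by no more than sampling noise (chi-square tests on counts, chi-square per degree of freedom of 1.02 over 9400 genes with p = 0.0513 on day 10, and 1.01 over 9987 genes with p = 0.144 on day 12). With genes whose reads RSEM divided among copies included, the ratio was 1.26 over 12328 genes and 1.39 over 13894 genes, above sampling noise. Each day was therefore counted as 1 library, with no replicate check of any difference between days and no test between them, and genes were ranked by the size of the difference. The day 10 library held 22470195 estimated counts and was the shallowest of the series, and the day 12 library held 62009157 and was the deepest, a ratio of 2.76. Mitochondrial ribosomal RNA took 24.4% of the counts on day 10 and 25.7% on day 12. As for the labelled cell type, Col1a1 stood at 3472 TPM (transcripts scaled to a fixed total) on day 10 and 3995 TPM on day 12, and Sparc at 15299 and 18683 TPM, whereas the lymphocyte and erythroid markers had at most 6 counts on either day. Differences are given as the log2 ratio of day 12 over day 10 of the summed counts, scaled by the upper quartile. Each has a 95% exact binomial interval, which covers counting error only. Levels are TPM normalised to the upper quartile and were listed for each profile. Because the profiles of a day are lanes of 1 library, their overlap or lack of it describes sequencing noise and the estimation of TPM. That estimation includes the division of shared reads. Genes with whole-number counts could also spread, as Spc25 did on day 10 (20.96, 9.951 and 9.884 TPM). Neither overlap nor its lack describes variation between cultures. In these bulk cultures, fewer cells of a type and less RNA per cell cannot be told apart.

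Of the 14350 genes, 1186 (8.26%) were at least 1.5-fold higher on day 12 and 736 (5.13%) were at least 1.5-fold lower, and the median log2 ratio was 0.02. Most genes moved little, with 5% of them below -0.59 and 5% above 0.85. At 2-fold, 538 genes were higher and 212 lower. The counting interval excluded 0 for 920 of the higher genes and for 591 of the lower genes, and it lay wholly past 1.5-fold for 291 and 173. Among the 9793 genes with a mean of at least 5 TPM, 199 were higher and 150 were lower. The steps on either side, over the same genes, share a library with this one and are given as values only. Between day 8 and day 10, 1943 genes (13.5%) were higher and 1447 (10.1%) lower, and between day 12 and day 14, 588 (4.1%) were higher and 987 (6.88%) lower.

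**Figure D1:**
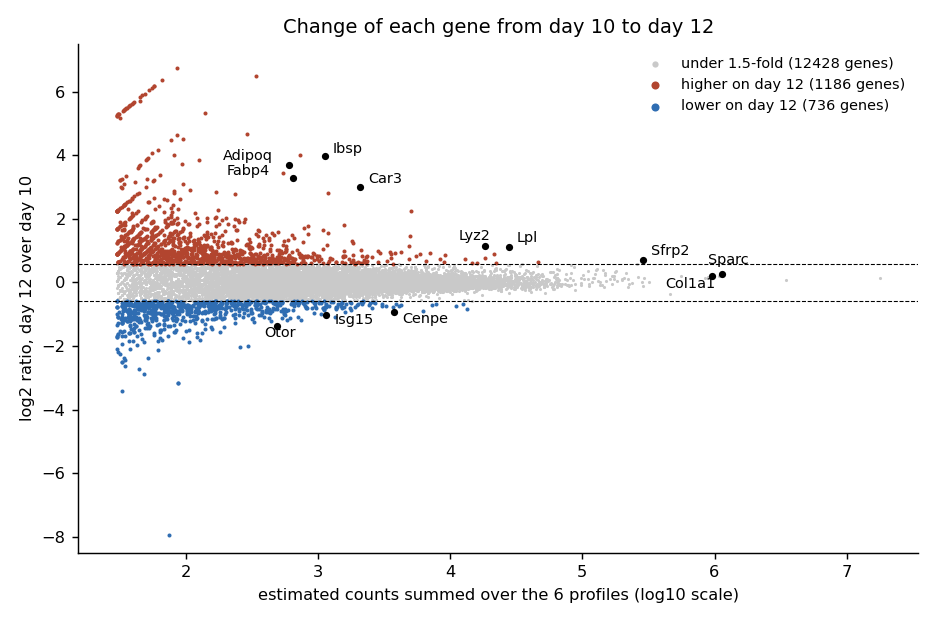
Each point is a gene, with its estimated counts summed over the 6 profiles on the x axis (log10 scale) and its log2 ratio of day 12 over day 10 on the y axis; dashed lines mark 1.5-fold, and 12 genes are labelled. The 1186 higher and 736 lower genes lie mostly at the left, where counts are few, while Col1a1 and Sparc at the right sit near 0.

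Calls were concentrated among genes with few counts. Of the 1846 genes with 30 to 100 counts, 32.7% were called higher and 20.1% lower, whereas of the 6325 genes with 1000 to 10000 counts 1.08% were higher and 0.917% lower. The minimum is a sum over both days, and day 12 gave most of the counts, so a gene seen on day 12 alone passed more easily than one seen on day 10 alone. Of the genes compared, 27 were at 0 counts on day 10 and 1 was at 0 on day 12. When day 12 was thinned to the depth of day 10 and the minimum was applied afterwards, an alternative chosen after seeing the data, 797 genes were higher and 629 lower.

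**Figure D2:**
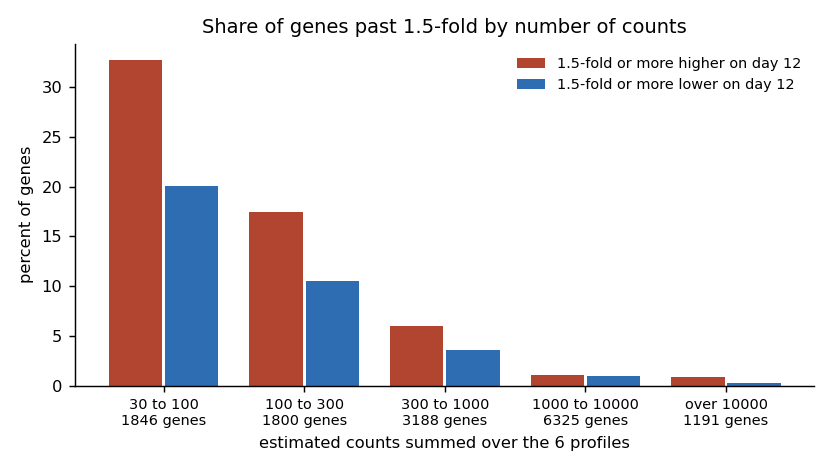
Bars give the percent of genes that were at least 1.5-fold higher (red) or lower (blue) on day 12 in 5 ranges of estimated counts summed over the 6 profiles, from 0 on a linear axis. The share called higher goes from 32.7% at 30 to 100 counts to 0.84% above 10000 counts.

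Genes were ranked among those with whole-number counts, at least 5 TPM on average and at least 10 counts on each day. The largest ratio was that of Ibsp, which encodes bone sialoprotein, a mineral-binding protein of the bone matrix (NCBIM37 chr5:104728190-104740488). Its level was 0.852, 0.584 and 1.63 TPM in the day 10 profiles and 17.4, 16.1 and 15.6 TPM in the day 12 profiles. The profiles of the 2 days lay far apart. Its count went from 26 to 1097, a log2 ratio of 3.99 (95% counting interval 3.44 to 4.62), and thinning day 12 to the depth of day 10 gave 3.91. Over the neighbouring steps, the log2 ratio of Ibsp was 0.58 from day 8 to day 10 and 0.12 from day 12 to day 14, so that most of its increase by day 14 lay between day 10 and day 12. It stood at 77.3 TPM on day 18.

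Ibsp belonged to a list of 18 late osteoblast and mineralization genes, of which 15 could be compared. Of these, 6 were called higher and 1 lower, against 8.26% and 5.13% of all genes, and the share called higher was 32.7% among all genes with 30 to 100 counts, where some of the members lie. The median log2 ratio was 0.07 against 0.02 over all genes. The median log2 change of late osteoblast and mineralization genes was 0.015 with day 12 thinned and -0.03 with the minimum applied after thinning, so the list as a whole had no clear direction. The 6 were Ibsp, Bglap, Ifitm5, Smpd3, Bglap2 and Phex. Phex, an endopeptidase gene whose loss causes phosphate wasting, was at 6.71 to 7.37 TPM in the day 10 profiles and at 12.7 to 13.4 TPM on day 12. Its ranges did not overlap, and its log2 ratio was 0.91 (0.78 to 1.04). Bglap, which encodes osteocalcin, rested on 2 counts on day 10 and 35.1 on day 12, for a log2 ratio of 2.56 (0.77 to 5.83), and it shares reads with its near copy Bglap2 (1.04, 0.25 to 1.96), so both are uncertain. Ifitm5, an osteoblast membrane protein gene, went from 6 to 67 counts, and Smpd3, a sphingomyelinase gene needed for mineralization, from 5 to 44. With day 12 thinned and the minimum applied afterwards, 3 genes of the list were called higher.

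Other genes of this list lay near or below 0. Spp1, which encodes osteopontin, was at 293 to 315 TPM on day 10 and at 287 to 312 TPM on day 12, and the profiles overlapped (log2 ratio -0.05, -0.10 to 0.00). Dmp1, an early osteocyte gene, had a log2 ratio of -0.35 with an interval from -0.81 to 0.13. Slc20a1, a phosphate transporter gene whose reads are partly shared, was the member called lower, at -0.79. The osteocyte genes Mepe, Sost and Fgf23 had 0 to 2 counts on either day and could not be compared. At this depth, 3 counts correspond to 0.134 CPM, counts scaled by depth, on day 10 and to 0.0484 CPM on day 12.

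The promoters of Ibsp and Bglap are shown because they are the genes of bone sialoprotein and osteocalcin, the latter with the uncertainty given above. The windows are RefSeq reference sequence on GRCm38.p6, from 200 bases before to 20 bases after the annotated start, read 5′ to 3′ on the gene's strand. Capitals mark the TATA box (TATAAA), the CCAAT box and the core letters bound by Runx factors (TGTGGT), searched on both strands.
Ibsp (chr5:104299087-104299306, plus strand): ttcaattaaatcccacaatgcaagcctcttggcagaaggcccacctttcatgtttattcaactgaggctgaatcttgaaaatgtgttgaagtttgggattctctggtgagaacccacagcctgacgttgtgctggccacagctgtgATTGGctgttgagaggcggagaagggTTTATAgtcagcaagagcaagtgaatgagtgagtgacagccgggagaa
Bglap (chr3:88384447-88384666, minus strand): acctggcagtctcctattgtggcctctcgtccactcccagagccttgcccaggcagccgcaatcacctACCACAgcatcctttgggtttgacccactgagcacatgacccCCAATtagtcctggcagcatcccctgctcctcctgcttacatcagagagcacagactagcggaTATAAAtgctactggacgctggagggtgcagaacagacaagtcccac
Ibsp held TATAAA on the opposite strand 28 bases before the start and CCAAT on the opposite strand 54 bases before it, with no TGTGGT in this window. Bglap held all 3, at 27, 90 and 132 bases before the start. In the full windows of 300 bases, TGTGGT was present for 6 of the 12 late osteoblast genes with a window (50%), against 14.8% of the 9670 compared genes with one. Of the called-higher genes with a window, Bglap held it and Ibsp, Phex and Ifitm5 did not, and the other holders were Spp1, Dmp1, Enpp1 and Car12, which were not called, and Slc20a1, which was called lower. A gene with several windows was counted once if any held the letters. A match describes letters and is not a binding site.

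The genes of the early matrix, by contrast, showed no member past 1.5-fold. All 17 could be compared, 15 lay above 0, and the median log2 ratio was 0.17, from -0.36 for Fn1 to 0.57 for Omd. Col1a1, the main chain of type I collagen, was at 3466, 3478 and 3471 TPM on day 10 and at 3962, 4007 and 4016 TPM on day 12. The 2 sets did not overlap, but the log2 ratio was only 0.22 (0.21 to 0.23). Sparc, a collagen-binding protein gene and the highest of the list, had 0.28, and Alpl, which encodes the tissue-nonspecific alkaline phosphatase, had 0.40. Among 16 osteoblast transcription factors, 1 was called higher and 1 lower, against 8.26% and 5.13% of all genes. Both calls came from few counts: Lef1 from 6 to 31 counts and Dlx6 from 17 to 27. Sp7, which acts after Runx2 in the lineage, was at 2.78 to 4.21 TPM on day 10 and at 6.45 to 6.98 TPM on day 12. Its log2 ratio was 0.51 from counts, whereas that of Runx2 was 0.05. The TPM ranges of Sp7 lay more than 1.5-fold apart, so whether it is called depends on the use of counts or TPM. The 20 collagen processing enzymes had no call and a median of 0.06.

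Adipocyte genes showed the largest shift of any list. Of 16 genes, 14 could be compared, and 12 of these were called higher and 0 lower, against 8.26% and 5.13% of all genes. Their median log2 ratio was 2.24, or 2.00 with Cfd at its lower bound. Cfd passed the count minimum through its day 12 counts alone. With day 12 thinned and the minimum applied afterwards, 11 genes were called higher and the median was 1.575. Among members with at least 300 counts, 10 were called higher and the median was 1.58. Without the first day 12 profile, the median was 1.65. Summed over the list, the level was 204, 195 and 178 TPM in the day 10 profiles and 525, 523 and 530 TPM on day 12. On day 8 the sum stood at 57.8 TPM, and by day 18 it had reached 1754 TPM.

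Secreted products and carriers were among the members called. Adipoq, the gene of the adipocyte hormone adiponectin (NCBIM37 chr16:23146609-23158101), was at 0.852, 1.75 and 1.03 TPM on day 10 and at 17.5, 14.9 and 16.3 TPM on day 12, with no overlap. Its counts were 17 and 592, and its log2 ratio was 3.70 (3.03 to 4.52). Fabp4, which encodes a fatty acid carrier, was at 4.09 to 5.23 TPM on day 10 and at 42.8 to 49.7 TPM on day 12 (log2 ratio 3.28, 2.71 to 3.95). Car3, a carbonic anhydrase gene abundant in fat, had 93 and 1983 counts and a log2 ratio of 3.01. Cfd, the gene of the secreted protease adipsin, had 0 counts on day 10 and 40 on day 12, which makes it at least 5.07-fold higher when day 10 is set to a floor of 3 counts in the library. 

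Lipid droplet and enzyme genes moved in the same direction. Plin1, which coats the lipid droplet, had 18 and 527 counts (log2 ratio 3.45), and Cidec, a droplet fusion gene, had 4 and 288 counts (4.67, 3.40 to 6.66). Gpd1, which makes the glycerol backbone of triglycerides and whose reads are partly shared, had a log2 ratio of 2.83. Smaller ratios were found for the fatty acid receptor gene Cd36 (1.66), for Dgat2, the last enzyme of triglyceride synthesis (1.51), and for Lpl, the lipase that takes lipid from lipoproteins (1.13). Lpl was also the most abundant member, at 103.8 to 106.5 TPM on day 10 and 244 to 247 TPM on day 12.

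The regulators of the program stood out less than its products. Pparg, its central nuclear receptor, was at 13.6 to 15.8 TPM on day 10 and at 25.4 to 26.9 TPM on day 12, a log2 ratio of 0.85 (0.68 to 1.03). Cebpa, which acts with it, was at 12.8 to 15.3 TPM and then at 16.9 to 17.6 TPM, with no overlap but a log2 ratio of 0.30. From day 8 to day 10, a step that shares the day 10 library, the log2 ratio was 2.02 for Cebpa, 1.71 for Pparg and 1.49 for Adipoq. Among 13 genes of fatty acid synthesis, 1 was called higher and 0 lower, against 8.26% and 5.13% of all genes. This call is near the share of all genes and is not read as a result about the list. It was Thrsp, from 3 to 124 counts (log2 ratio 3.84, 2.39 to 6.27). The median of the 13 was -0.13, and Fasn, the fatty acid synthase gene, had -0.19.

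**Figure D3:**
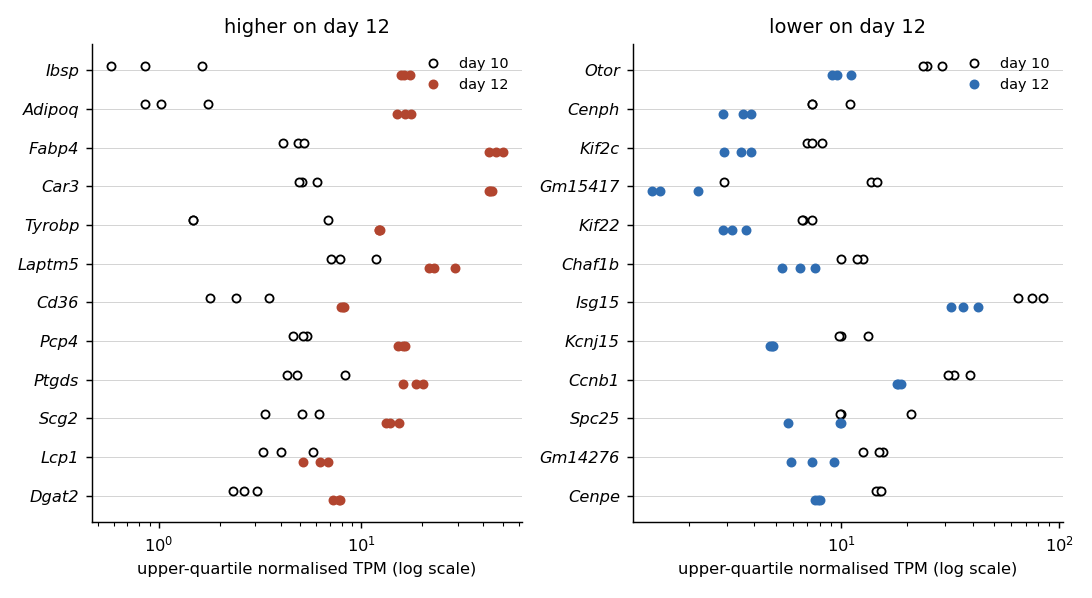
Levels of the 12 genes with the largest log2 ratio in each direction, among genes with whole-number counts, at least 5 TPM on average and at least 10 counts on each day; open points are the 3 day 10 profiles and filled points the 3 day 12 profiles, as upper-quartile normalised TPM on a log axis. The points of Ibsp, Adipoq, Fabp4 and Car3 are far apart, whereas those of Lcp1 overlap.

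Monocyte and macrophage genes were the second list with nearly all members higher. Of 18 genes, 16 could be compared, 15 were called higher and 0 lower, against 8.26% and 5.13% of all genes, and the median log2 ratio was 1.2. Their summed level was 241, 241 and 252 TPM in the day 10 profiles and 540, 537 and 552 TPM on day 12. Lyz2, which encodes lysozyme, made up most of this sum, at 179 to 187 TPM on day 10 and 401 to 406 TPM on day 12 (log2 ratio 1.13, reads partly shared). Among the surface genes, Csf1r, Emr1 and Ptprc were present at low level and called higher on day 12, whereas Cd14, given below, was not. Csf1r, the receptor for the macrophage growth factor, had 69.2 and 342 counts (log2 ratio 0.91, 0.54 to 1.31). Emr1, the gene of the F4/80 antigen, had 43 and 312 counts (1.46, 1.00 to 1.96). Ptprc, which encodes CD45, had 19 and 79 counts (0.65), with an interval that included 0.

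Signalling adaptors and complement genes were called higher as well. Tyrobp, the gene of the adaptor DAP12, was at 6.85, 1.47 and 1.47 TPM on day 10 and at 12.4, 12.3 and 12.2 TPM on day 12. Its log2 ratio was 1.91 (1.11 to 2.88) from 13 and 131 counts, and 2.99 without the first day 10 profile, which held most of its day 10 level. Fcer1g, which pairs with Fc receptors, had 1.49, and the complement genes C1qa, C1qb and C1qc had 1.15, 1.48 and 1.39. Laptm5, a lysosomal membrane protein gene of blood cells, had 82 and 707 counts (1.71). Cd14, the co-receptor for endotoxin, had -0.14, with an interval from -0.86 to 0.63, and Cx3cr1 and Ccr2 had 0 to 5 counts. The part of these cells in the other differences between the days was not tested.

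Osteoclasts share their origin with macrophages. Of 10 osteoclast genes compared, 3 were called higher and 0 lower, with a median of 0.14, against 8.26% and 5.13% of all genes. Among all genes, the share called higher was 32.7% at 30 to 100 counts and 17.4% at 100 to 300 counts. The members do not all lie at such counts, and the 3 calls are not read as a result about the list. Those called were Mmp9 (log2 ratio 1.29, 22 and 143 counts), Tnfrsf11a, which encodes the receptor for RANKL (0.84, -0.06 to 1.89), and the gene listed as 4833422F24Rik (0.93, from 37.4 counts on day 12). Ctsk, the collagen-degrading cathepsin, had 0.16, as had Acp5, the tartrate-resistant phosphatase gene. Calcr and Tm7sf4, which mark mature osteoclasts, had 0 counts on both days. The 9 genes that support osteoclasts had no call and a median of -0.09.

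Genes of cell division were lower on day 12. Of 25 mitosis genes, all compared, 25 lay below 0, 21 were at least 1.5-fold lower and 0 at least 2-fold lower, and the median log2 ratio was -0.75. Over all genes, 5.13% were called lower. The summed level was 578, 577 and 561 TPM in the day 10 profiles and 353, 360 and 351 TPM on day 12, after 1132 TPM on day 8 and before 316 TPM on day 14. Cdk1, the kinase that starts mitosis, was at 47.8, 35.7 and 28.5 TPM on day 10 and at 18.9, 20.8 and 22.5 TPM on day 12, with no overlap. Its counts were 444 and 681, and its log2 ratio was -0.78 (-0.95 to -0.60).

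The same held for cyclins, motors and kinases of the spindle. Ccnb1, the cyclin B1 gene, was at 30.7 to 39.1 TPM on day 10 and at 17.9 to 18.7 TPM on day 12 (log2 ratio -0.94, -1.08 to -0.79). Top2a, which untangles chromosomes, was at 43.5 to 45.6 TPM and then at 23.6 to 26.2 TPM (-0.91). Cenpe, a kinetochore motor gene, had -0.92, Plk1, the polo-like kinase gene, -0.96, and Mki67, the Ki-67 proliferation antigen gene, -0.75. The members short of 1.5-fold were Kif20a (-0.57), Aurkb (-0.51), Nusap1 (-0.35) and Cdc20 (-0.31). Kinetochore and spindle genes outside this list were also among the 12 lowest by the ranking, namely Cenph (-1.27), Kif2c (-1.18), Kif22 (-1.09) and Spc25 (-0.94). For Spc25 the profiles overlapped, at 9.88 to 21.0 TPM on day 10 and 5.73 to 9.93 TPM on day 12.

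Genes of DNA replication were lower by less. Of 24 compared, 22 lay below 0, 9 were called lower and 0 higher, against 5.13% and 8.26% of all genes, and the median was -0.47. Cdc45, part of the replicative helicase, was at 4.15 to 6.50 TPM on day 10 and at 2.29 to 2.75 TPM on day 12 (log2 ratio -1.07, -1.43 to -0.72). Mcm5, another helicase subunit gene, had -0.62, Pcna, the sliding clamp gene, -0.37, and Mcm7 0.24. Chaf1b, a histone chaperone gene that follows the replication fork, had -1.04 and was among the 12 lowest. The 16 CDK inhibitors and p53 targets had no call in either direction and a median of -0.05.

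Promoters of mitosis genes are shown because the list moved together. Such promoters often hold CCAAT boxes and the cell cycle homology region, TTTGAA. Capitals mark both, on either strand, in the same kind of window as above.
Cdk1 (chr10:69352893-69353112, minus strand): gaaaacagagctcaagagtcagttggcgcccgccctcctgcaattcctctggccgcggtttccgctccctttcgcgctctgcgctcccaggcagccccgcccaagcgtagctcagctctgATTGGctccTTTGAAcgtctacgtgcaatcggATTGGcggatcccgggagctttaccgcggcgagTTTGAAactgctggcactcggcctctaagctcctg
Ccnb2 (chr9:70421535-70421754, minus strand): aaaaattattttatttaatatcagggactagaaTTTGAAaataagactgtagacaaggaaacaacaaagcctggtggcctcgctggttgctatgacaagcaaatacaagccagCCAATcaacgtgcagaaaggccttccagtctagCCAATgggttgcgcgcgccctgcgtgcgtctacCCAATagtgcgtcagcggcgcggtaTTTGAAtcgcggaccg
Ccnb1 (chr13:100786467-100786686, minus strand): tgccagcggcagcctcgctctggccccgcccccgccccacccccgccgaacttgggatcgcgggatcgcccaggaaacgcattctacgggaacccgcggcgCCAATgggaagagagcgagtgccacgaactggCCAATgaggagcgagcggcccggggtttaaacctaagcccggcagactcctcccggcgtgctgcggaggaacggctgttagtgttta
Cdk1 held TTTGAA 71 and 15 bases before the start and CCAAT, as ATTGG, 80 and 48 bases before it. Ccnb2 held CCAAT 87, 54 and 21 bases before the start and TTTGAA at 167 before and at 5 after it. Ccnb1 held CCAAT at 99 and 67 bases before the start and no TTTGAA here. In the full windows, TTTGAA was present for 16 of the 21 mitosis genes with a window (76.2%), against 14.3% of the 9670 compared genes, and CCAAT for 18 (85.7%), against 43.3%. For the replication genes the shares were 15% and 65% of 20. Of the mitosis genes called lower, Ccnb1, Bub1, Cenpe and Birc5 held no TTTGAA, whereas Cdc20, which was not called, held both. The part of these letters in the difference between days was not tested.

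Interferon response genes were lower too. These genes are switched on by interferons and by sensing of foreign nucleic acid, and many encode antiviral proteins. Of 20 compared, 9 were called lower and 0 higher, against 5.13% and 8.26% of all genes, 17 lay below 0, and the median log2 ratio was -0.48. Their summed level was 787, 778 and 788 TPM on day 10 and 543, 529 and 536 TPM on day 12. It was already lower on day 10 than on day 8, at 1961 TPM, and stood at 412 TPM on day 14.

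Isg15, a ubiquitin-like modifier gene (NCBIM37 chr4:155573533-155574927), was at 84.2, 64.4 and 74.6 TPM on day 10 and at 42.4, 32.0 and 36.3 TPM on day 12, with no overlap. Its log2 ratio was -1.01 (-1.18 to -0.84), after -2.10 from day 8 to day 10. Bst2, which tethers virus particles, was at 157 to 172 TPM and then at 100 to 106 TPM (-0.67). Ifit1 had -0.70, Oasl2 -0.69 and Irf7, the main regulator of type I interferon, -0.87. Rsad2 and Cxcl10 had 0.16 and 0.15, from 47 and 44 counts on day 10, with intervals that included 0.

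Promoters of Isg15 and Ifit1 are shown because these genes belong to the group that was lower together, with the interferon-stimulated response element, searched as GAAANNGAAA on both strands and marked in capitals.
Isg15 (chr4:156200799-156201018, minus strand): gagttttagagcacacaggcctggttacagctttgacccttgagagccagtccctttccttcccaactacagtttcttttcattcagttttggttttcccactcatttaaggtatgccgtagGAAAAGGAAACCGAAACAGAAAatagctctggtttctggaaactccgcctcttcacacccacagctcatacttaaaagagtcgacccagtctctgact
Ifit1 (chr19:34640689-34640908, plus strand): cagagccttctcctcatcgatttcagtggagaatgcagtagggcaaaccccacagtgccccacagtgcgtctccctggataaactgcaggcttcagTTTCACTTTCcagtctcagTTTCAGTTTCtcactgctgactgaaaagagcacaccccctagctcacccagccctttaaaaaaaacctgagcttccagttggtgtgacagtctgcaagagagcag
Isg15 held 3 matches that overlap one another, at 78, 72 and 66 bases before the start. Ifit1 held matches at 104 and 85 bases before the start, both on the opposite strand. The element was present in the full windows of 11 of the 16 interferon genes with a window (68.8%), against 3.75% of the 9670 compared genes. Of the holders, Isg15, Ifit1, Ifit3, Oas1a and Bst2 were called lower, and Ifih1, Rsad2, Cxcl10, Ddx58, Gbp2 and Gbp3 were not called. Irf7, Ifi44 and Oasl2 were called lower and held none. The list was made of genes switched on by interferons, and the part of the element in the difference between days was not tested.

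Cholesterol synthesis genes showed a small shift without a call. Of 19 compared, 18 lay below 0, 0 passed 1.5-fold and the median log2 ratio was -0.35. The lowest was Fdps, which makes farnesyl diphosphate, at -0.55. Their summed level was 531, 511 and 495 TPM on day 10 and 420, 410 and 421 TPM on day 12, so the profiles did not overlap.

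Wnt antagonists, receptors and targets held calls on both sides. Of 17 compared, 5 were called higher and 1 lower, against 8.26% and 5.13% of all genes, with a median of 0.37. The median log2 change of Wnt antagonists and targets was 0.16 in TPM and 0.18 among whole-number genes. Sfrp2, a secreted frizzled-related protein gene and the most abundant of these, was at 2264, 2237 and 2280 TPM on day 10 and at 3684, 3697 and 3640 TPM on day 12 (log2 ratio 0.71, 0.69 to 0.72, reads partly shared). Lgr5, an R-spondin receptor gene, had 0.62, Sfrp4 0.61 and Sostdc1, a Wnt and BMP antagonist gene, -0.61. Axin2, a general Wnt target, had 0.23, with an interval that included 0. In the insulin-like growth factor system, 2 of 14 were called higher, Stc1 and Igfbp6, against 8.26% of all genes. Igf2 lay just under the threshold at 0.58, with 52126 and 205226 counts.

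Matrix metalloproteinases and inhibitors included genes on either side. Of 16 compared, 3 were called higher and 1 lower, against 8.26% and 5.13% of all genes. Mmp13, the collagenase of bone and cartilage, was at 137 to 140 TPM on day 10 and at 85.1 to 90.1 TPM on day 12, with no overlap (log2 ratio -0.66, -0.72 to -0.61). Mmp9, Mmp12 and Mmp3 were the other calls of that list, all higher. Gpx3, a secreted glutathione peroxidase gene, was at 472 to 494 TPM and then at 751 to 755 TPM (0.64, 0.61 to 0.68). Among 13 chemokine and inflammation genes, Ccl5 had 4 and 68 counts (2.60, 1.27 to 4.61), Ccl7 240 and 399 (-0.66), and Lif 20 and 17 (-1.59). In all, 3 of the 13 were called higher and 2 lower. Over all genes the shares were 8.26% and 5.13%, and among genes with 30 to 100 counts 32.7% and 20.1%. For Lif the TPM went the other way, from 0.404 to 0.835.

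The other lists gave few calls. Over all genes, 8.26% were called higher and 5.13% lower, and among genes with 30 to 100 counts 32.7% and 20.1%. The few calls below are given beside these shares and are not read as results about the lists. Ribosomal protein genes (25 compared, median -0.08), proteasome genes (21, -0.11), nuclear respiratory chain genes (23, -0.07), lysosomal genes (23, 0.06), heat shock genes (15, -0.08) and TGF-beta and CCN genes (18, 0.04) had 0 calls in either direction, as had the 13 mitochondrial messenger RNAs, whose median was 0.18. Among 22 hypoxia and glycolysis genes, the 1 call was Egln3, an oxygen sensor gene, at -2.38 from 35 and 17 counts. The 21 immediate early genes gave 3 calls higher, with Fosb at 30 and 189 counts, and 2 lower, with a median of 0.24. Other cell types were represented unevenly: of 6 endothelial genes compared, 2 were higher, whereas Tie1 and Cldn5 had 0 counts on both days, and of 14 smooth muscle genes 1 was lower. Of 7 glia and neuron genes 2 were lower, with Tubb3 at -1.60, and the 1 mast cell gene compared, Hdc, had -1.57 from 22 and 19 counts. Cartilage genes (14 compared) and skeletal muscle genes (5) each gave 1 call higher and 1 lower. The 17 circadian clock genes gave 2 calls higher, Dbp (0.83) and Npas2 (0.74). The 13 glucocorticoid response genes and the 19 BMP genes each gave 1 higher, and the 20 unfolded protein response genes and the 17 antioxidant genes each 1 higher and 1 lower.

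**Figure D4:**
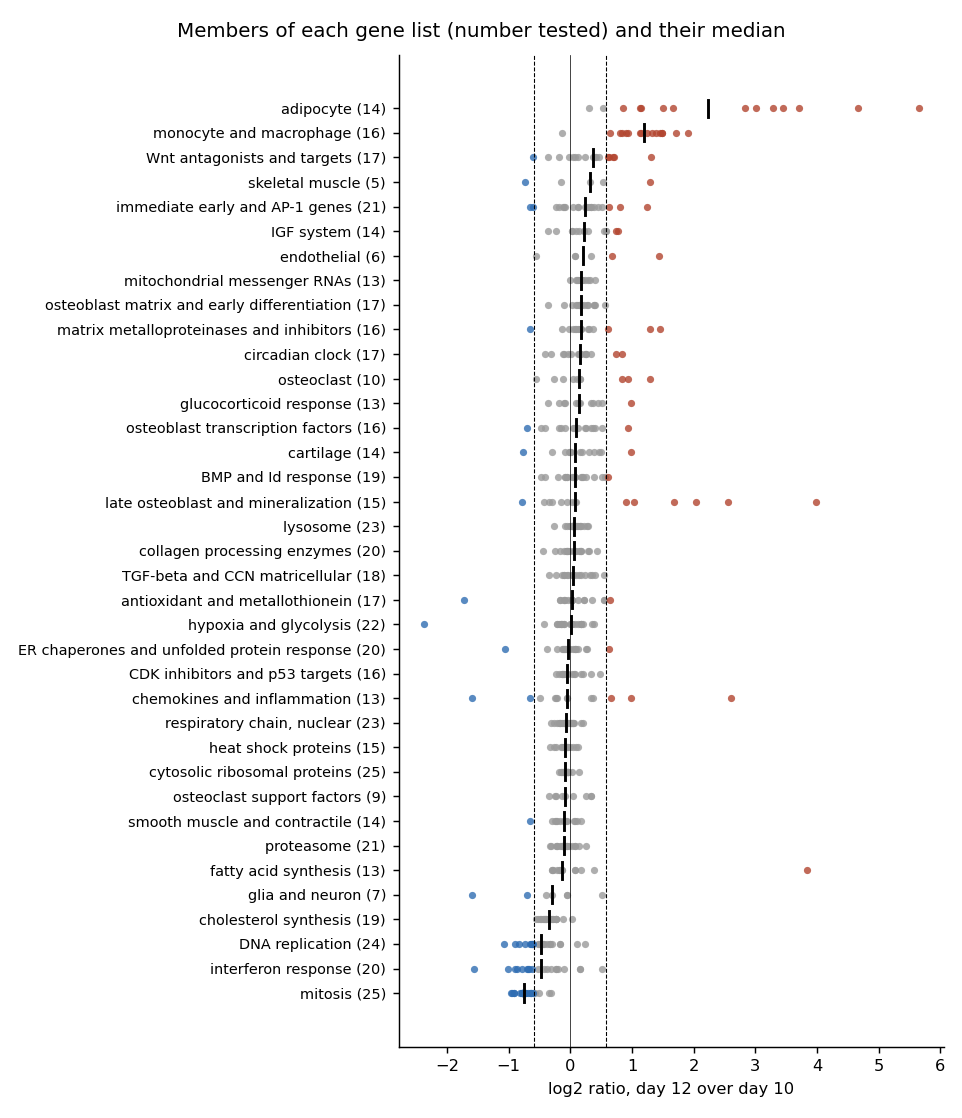
Each row is a list with at least 5 compared genes, with the number in brackets; points are members at their log2 ratio of day 12 over day 10, red where at least 1.5-fold higher and blue where at least 1.5-fold lower, black bars are medians and dashed lines mark 1.5-fold. The adipocyte (median 2.24) and macrophage (1.2) lists stand to the right and the mitosis list (-0.75) to the left.

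The genes around Rin3 that the study followed had no call in counts. Rin3, which encodes a Rab5 regulator of endocytosis, was at 10.6, 16.3 and 21.3 TPM on day 10 and at 23.8, 31.3 and 23.2 TPM on day 12. The sets did not overlap, although the day 10 profiles spread widely, and the log2 ratio of counts was 0.51 (0.33 to 0.69). Its mean level, 16.05 and 26.1 TPM, differed by more than 1.5-fold, so that whether Rin3 is called depends on the use of counts or TPM. Golga5, Lgmn and Itpk1 had 0.24, 0.28 and 0.36, and the interval of Itpk1 included 0. Slc24a4 had 2 and 3 counts, and Chga 0 on both days.

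The remaining genes named by rank included several outside these programs. Higher were Pcp4 (log2 ratio 1.64), Ptgds, a prostaglandin D synthase gene (1.57), Scg2, a granin gene (1.55), and Lcp1, an actin-bundling protein gene of blood cells (1.53). For Lcp1 the TPM profiles overlapped, at 3.28 to 5.74 on day 10 and 5.18 to 6.855 on day 12, and the log2 ratio of TPM was 0.48. Lower were Otor, a small secreted protein gene (-1.37, with 23.6 to 28.85 TPM on day 10 and 9.04 to 11.1 TPM on day 12), Kcnj15, a potassium channel gene (-0.99), and the predicted genes Gm15417 and Gm14276. Gm15417 rested on 25 and 30 counts, and its day 10 profiles ran from 2.90 to 14.7 TPM. Its log2 ratio was -1.11 in counts and -2.56 in TPM. Among genes that share reads and are therefore uncertain, D14Ertd449e and Prg4 were higher and Gm5776, Gm14434 and Gm15710 lower; the ratio of Gm5776 was -2.04 in counts and -0.61 in TPM.

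Days outside the comparison, day 8 and day 14, share no library with it and were read as a longer interval around it. Over all 14350 genes, 49.1% were higher on day 14 than on day 8, with a median log2 ratio of -0.01. Of all these genes, 18% were at least 1.5-fold higher over this interval and 15.8% at least 1.5-fold lower. Of the 1186 genes higher on day 12, 874 (73.7%) were above 0 from day 8 to day 14, and the median was 0.78. Of the 1186, 656 (55.3%) were at least 1.5-fold higher and 154 (13%) at least 1.5-fold lower. Of the 736 lower genes, 221 (30%) were above 0, and the median was -0.66. Of the 736, 385 (52.3%) were at least 1.5-fold lower and 124 (16.8%) at least 1.5-fold higher. With at least 300 counts, the shares above 0 were 91.1% of 269 genes and 8.52% of 176, against 48% of all 10704 genes. Adipocyte genes had a median of 5.22 over this interval, macrophage genes 3.12, mitosis genes -1.89 and interferon genes -2.44.

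**Figure D5:**
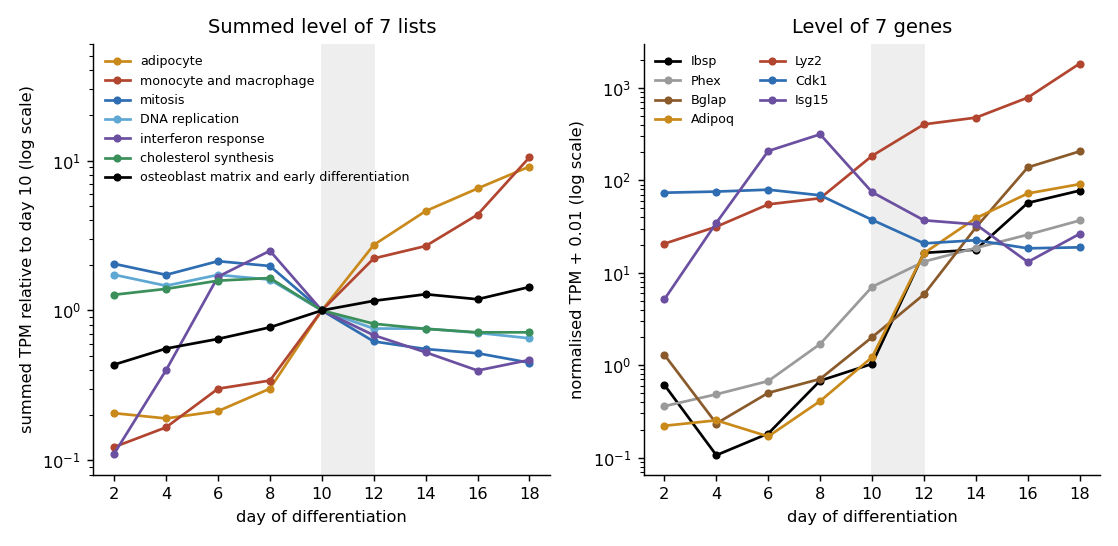
Left, summed TPM of 7 lists relative to day 10, and right, TPM of 7 genes plus 0.01, against day of differentiation, on log axes, as the mean of the 3 profiles of each day; grey marks day 10 to day 12. Ibsp goes from 1.02 to 16.4 TPM within the grey band, whereas the mitosis and interferon lists were at 1132 and 1961 TPM on day 8, above their day 10 sums.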

How the data were processed

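RNA was amplified with the NuGEN Ovation system and sequenced on a HiSeq 2000. The authors aligned reads to NCBIM37 with Bowtie (version 0.12.9) and estimated expression with RSEM (version 1.2.8, both per the submitters' processing notes). The deposited tables give an estimated count and a TPM for each of 37991 genes per profile, and an FPKM that was not used. Estimated counts were summed over the 3 profiles of a day without rounding. A gene was compared with at least 30 summed counts, the 2 days were scaled by the upper quartile over these genes, and a pseudocount of 0.5, scaled to the library, was added before taking log2. A gene was called at 1.5-fold. The deposited TPM values were scaled by their upper quartile and served for levels. Counting intervals are exact Clopper-Pearson intervals (95%, scipy 1.17.1). With 1 library a day no model was fitted, and edgeR 4.0.16 and DESeq2 1.42.0 (R 4.3.3) supplied only alternative scaling factors. Counts whole to within 0.01 in all 6 profiles were read as free of shared reads. Identifiers were matched to GENCODE names, which gave symbols for 37205 genes and left 786 without one. Promoter sequences are RefSeq windows on GRCm38.p6, used for sequence only. Members, the 40 gene lists and the rule for naming genes (the 12 largest ratios in each direction, the 3 largest among genes with shared reads, examples from each list and the genes near Rin3) were chosen with earlier results of these data known, and further list members were named for their known roles after their values were seen. The procedure was tested on simulated data. Alternatives covered scaling, the count minimum, the pseudocount, the fold, thinning of day 12, TPM, shared reads, mitochondrial genes and leaving out each profile.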

Additional observations from a re-analysis of the deposited data

How the results depend on the processing

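No paired analysis was possible because each day is 1 library and no test was made between days. For the genes higher on day 12 and the genes lower on day 12, scaling by TMM gave 1157 and 756, by median of ratios 1148 and 763, and by total counts 1015 and 900. A minimum of 300 counts left 266 higher and 179 lower, and a minimum of 1 count gave 3989 and 2785. At 2-fold the counts were 538 and 212, and at the smaller fold tried, the ratio of 5 to 4, 2325 and 1656. Among whole-number genes 803 were higher and 479 lower. Leaving out 1 profile gave 983 to 1232 higher and 657 to 720 lower genes. For DNA replication, 9 genes lower became 5 at 300 counts, 5 among whole-number genes, 1 at 2-fold and 19 at the smaller fold. For interferon response, 9 lower became 5 among whole-number genes and 2 at 2-fold. For mitosis, 21 lower became 0 at 2-fold. For late osteoblast genes, 6 higher became 2 at 300 counts and 3 with day 12 thinned before the minimum was applied. By construction, the number of genes compared changed with each minimum and with the whole-number rule, and the threshold with the fold. No gene named by rank changed sign, whereas Lif, lower in counts, was higher in TPM. Some list medians crossed 0: the median log2 change of late osteoblast and mineralization became -0.03 with day 12 thinned before the minimum, the median log2 change of chemokines and inflammation became 0.17 without the third day 10 profile, and the median log2 change of skeletal muscle became -0.16 at 300 counts and -0.05 without the first day 12 profile. Medians near 0 of the BMP, TGF-beta, antioxidant, collagen processing, lysosome and hypoxia lists fell below 0 under total counts, that of hypoxia also under other settings. Of 496 values of named genes under the alternatives, 12 fell outside the counting interval of the gene, 6 of them in TPM. Tyrobp gave 2.99 without the first day 10 profile. The depth of day 10 limits genes with few counts.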

Other observations

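The following genes belong to no list and were picked after their values were seen, because they were higher on day 12, so they stand for no group. Eln, which encodes elastin, had 610 counts on day 10 and 4386 on day 12, a log2 ratio of 1.45 (95% counting interval 1.33 to 1.57), and its level went from 18.6 to 50.85 TPM. Cilp, a cartilage matrix protein gene, had a log2 ratio of 1.76, Col15a1, a basement membrane collagen gene, 0.97 and Gdf10, a BMP family member, 0.95. Fgf18, a growth factor of bone and cartilage, had 1.40, and Aldh1a2, which makes retinoic acid, 1.32.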
